A study of Mus musculus with 2 samples.

Results

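Lyz1, Mmp7, Ang4, Mptx2, Habp2 and Rnase1 are 6 genes of the secretory program of Paneth cells, and none of the 6 is a defensin. They were chosen by symbol from the 32285 genes of both count tables, and all 6 were listed in both. Their transcripts were followed as unique molecular identifiers (UMIs, each standing for 1 captured RNA molecule) in single-cell RNA-seq of sorted intestinal epithelial cells. Of the 2 libraries, 1 came from wild type mice (WT) and 1 from littermates that overexpress MG53 throughout the body (MG53-TG). Both groups were given 2.5% dextran sulfate sodium (DSS), a polymer that injures the gut lining, and crypts were taken on day 7, dissociated, and sorted for live (7-AAD-) cells with the epithelial surface protein EpCAM. How many animals went into a library is not given in the labels. The study describes several animals per group, but each group is 1 library here and no table used here ties cells to animals, so the spread between mice cannot be measured. No library of untreated mice was analysed here, so that DSS is shared by every value. MG53, encoded by Trim72, is a protein of membrane repair in muscle. The promoter of the transgene and the age, sex and strain of the mice are not given in the sources used here.

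Paneth cells sit at the base of the small intestinal crypts, between the stem cells, and release granules filled with antimicrobial proteins into the crypt lumen. Alpha-defensins are the best known of these proteins, and they are made in the mouse as precursors that have to be cut before they kill bacteria. Lyz1 encodes the Paneth cell lysozyme, which breaks the peptidoglycan of bacterial walls. Mmp7 encodes matrilysin, the protease that cuts the alpha-defensin precursors. Ang4 (angiogenin 4) and Rnase1 belong to the pancreatic ribonuclease family, and Ang4 has bactericidal activity. Mptx2 encodes a mucosal pentraxin, of the same family as C-reactive protein. Habp2 encodes a hyaluronan-binding serine protease that is otherwise known from the liver and plasma.

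All 6 are annotated as protein coding in GENCODE vM21 on GRCm38. Lyz1 lies at chr10:117287797-117292868 on the minus strand and has 4 exons. Its close paralog Lyz2, the lysozyme of macrophages, is 5.5 kb away. Mmp7 lies at chr9:7692090-7699585 on the plus strand with 6 exons, and an antisense gene (AV064505) overlaps it on the other strand. Ang4 lies at chr14:51763878-51773590 and Rnase1 at chr14:51144998-51146785, both on the minus strand with 2 exons. Mptx2 lies at chr1:173274382-173277777 on the minus strand with 2 exons, 1052.7 kb from its paralog Mptx1. Habp2 lies at chr19:56287137-56320822 on the plus strand, with up to 14 exons in its 7 transcripts, and Nrap overlaps it on the other strand. Whether reads were counted by strand, and how reads that fit several paralogs were treated, is not stated. AV064505 was counted 12 times (WT) and 9 times (MG53-TG) over all kept cells, beside 54319 and 39364 of Mmp7. Nrap had 6 and 2 UMIs in Paneth-like cells, where Habp2 had 1319 and 890.

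The start regions of 4 of the genes are shown because their transcripts had different homes among the cell types described below. Those of Lyz1 and Mptx2 lay almost wholly in Paneth-like cells, and those of Mmp7 and Ang4 in goblet-like cells as well. Each sequence, from RefSeq on GRCm38.p6, runs from 250 bases before the transcription start to 30 bases after it, on the strand of the gene. Capitals mark matches to ATCAAAG (the core bound by TCF and LEF factors of the Wnt pathway, searched on both strands), to CAGCTG (an E-box, which reads the same on both strands) or to TATAAA (searched on the strand of the gene). The searched motifs did not overlap each other in these windows.
Lyz1, chr10:117292839-117293118, minus strand: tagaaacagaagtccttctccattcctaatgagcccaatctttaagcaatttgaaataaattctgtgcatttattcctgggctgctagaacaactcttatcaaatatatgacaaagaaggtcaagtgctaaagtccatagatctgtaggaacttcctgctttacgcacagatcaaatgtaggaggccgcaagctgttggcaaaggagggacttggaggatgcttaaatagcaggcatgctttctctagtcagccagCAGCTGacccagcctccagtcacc
Mptx2, chr1:173277727-173278006, minus strand: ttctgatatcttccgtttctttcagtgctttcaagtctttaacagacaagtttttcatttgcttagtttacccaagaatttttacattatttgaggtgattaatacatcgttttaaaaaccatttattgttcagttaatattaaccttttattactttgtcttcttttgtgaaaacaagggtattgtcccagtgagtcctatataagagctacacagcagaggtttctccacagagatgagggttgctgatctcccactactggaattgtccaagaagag
Mmp7, chr9:7691840-7692119, plus strand: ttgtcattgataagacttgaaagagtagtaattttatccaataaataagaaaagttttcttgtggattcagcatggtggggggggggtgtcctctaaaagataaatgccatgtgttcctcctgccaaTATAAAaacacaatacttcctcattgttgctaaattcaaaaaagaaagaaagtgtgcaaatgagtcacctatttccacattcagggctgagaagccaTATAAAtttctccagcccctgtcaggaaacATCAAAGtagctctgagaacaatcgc
Ang4, chr14:51773561-51773840, minus strand: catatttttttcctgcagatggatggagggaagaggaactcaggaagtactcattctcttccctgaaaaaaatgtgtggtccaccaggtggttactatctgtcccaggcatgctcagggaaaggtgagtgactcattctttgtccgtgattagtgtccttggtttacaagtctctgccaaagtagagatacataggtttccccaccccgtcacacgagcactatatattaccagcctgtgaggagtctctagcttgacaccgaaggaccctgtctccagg
Counted from 1 at the first transcribed base, Lyz1 had the E-box letters at position 7. Mmp7 had the TCF/LEF letters at position 5 and TATAAA at -123 and -26. Mptx2, Ang4, Habp2 and Rnase1 had none of the 3 sets of letters in this window. Among all 32851 promoter windows of that length, 3.56% held ATCAAAG, 14.9% CAGCTG and 8.02% TATAAA. These matches are descriptions of the letters and no measurement of binding.

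Cells were grouped by clustering without the 6 genes and without Trim72, so that the genes described took no part in naming the cells. The filters left 6963 WT and 4941 MG53-TG cells, with 14035 and 17950 UMIs in the median cell, and 8 kept barcodes occurred in both libraries. Trim72 had 63 UMIs in the epithelial cells of WT (0.594 CPM, where CPM scales UMIs to a total of 1e6) and 4569 (50.8 CPM) in those of MG53-TG. T cell-like cells were present in spite of the EpCAM gate (641 and 251 cells) and served as a measure of free RNA, since they should lack all 6 genes. Reads of the libraries were counted with different versions of Cell Ranger, so genotype, library and program version cannot be told apart, and with 1 library per group no test between genotypes was possible. Intervals in brackets are exact at 95% and cover counting error only, not the spread between mice.

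The cells named Paneth-like formed 2 clusters, one with Paneth markers throughout and one mixed. The defensin-high cluster held 240 WT and 96 MG53-TG cells, with 49481.5 and 46042.5 UMIs in the median cell. Alpha-defensins made up 65.2% and 67.2% of all UMIs there, and 14 of 14 measured Paneth markers stood at least 1.5 times above the other epithelial cells in each library. The defensin-low cluster held 193 and 156 cells at 14917 and 18584.5 UMIs, with 13.6% and 17.6% of the UMIs from alpha-defensins. It carried goblet as well as Paneth transcripts: 5 (WT) and 9 (MG53-TG) of 14 Paneth markers, 7 and 3 of 10 goblet markers, and 6 and 4 of 9 secretory progenitor markers passed 1.5 times. In WT more goblet than Paneth markers passed, so its name, which rests on leading genes such as Defa17, Defa24 and Itln1, does not follow from this count. Values summed over both clusters are those of a mixed set of cells. Muc2, the gel-forming mucin of goblet cells, stood there at 9869 (WT) and 8422 CPM (MG53-TG), beside 11564 and 10459 CPM in goblet-like cells. Goblet-like cells (1639 and 1869) came from 5 clusters. A cluster of 59 and 104 cycling cells with Atoh1, the transcription factor that sets the secretory fate, is called cycling Atoh1+ below. Of 9 pancreatic acinar markers, 5 were at 0 in both libraries. Cela1 (2792 and 2264 UMIs) and Ctrb1 (44 and 98 UMIs) were the acinar markers with more than 1 UMI in a library.

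The 6 genes fell into those restricted to Paneth-like cells and those shared with goblet-like cells. Mptx2 was the most restricted, with 98.5% (WT) and 99.0% (MG53-TG) of its UMIs in Paneth-like cells, although these cells held 13.7% and 8.48% of all UMIs. Lyz1 had 96.3% and 93.4% of its UMIs there, close to the 96.4% and 92.3% of the alpha-defensins summed over 29 genes. Ang4 had 80.9% (WT) and 61.5% (MG53-TG) of its UMIs in Paneth-like cells. Habp2 had 83.1% and 69.5% there, Mmp7 67.4% and 58.7%, and Rnase1 63.0% and 51.2%. Part of each share lay in the mixed defensin-low cluster. Defensin-high cells alone held 75.1% and 45.3% for Ang4, 67.1% and 43.5% for Habp2, 50.8% and 33.6% for Mmp7 and 32.0% and 16.4% for Rnase1, beside 98.0% and 97.0% for Mptx2 and 92.0% and 80.9% for Lyz1. For Ang4, Habp2, Mmp7 and Rnase1 most of the UMIs outside Paneth-like cells lay in goblet-like cells. Goblet-like cells held 28.4% and 35.3% of the UMIs of Mmp7, 28.1% and 38.6% of those of Rnase1, 17.4% and 36.2% of those of Ang4 and 12.8% and 23.4% of those of Habp2. The share of all UMIs in goblet-like cells also differed, at 21.2% in WT and 35.1% in MG53-TG. A share of this kind does not by itself separate the number of cells of a type from the RNA per cell. On average a defensin-high cell held 2082 (WT) and 2552 (MG53-TG) Lyz1 UMIs, 115 and 138 of Mmp7 and 636 and 859 of Ang4. It held 303 and 430 of Mptx2, 4.44 and 5.80 of Habp2 and 14.1 and 23.2 of Rnase1. Defensin-high cells numbered 240 of 6963 kept cells in WT and 96 of 4941 in MG53-TG.

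**Figure D1:**
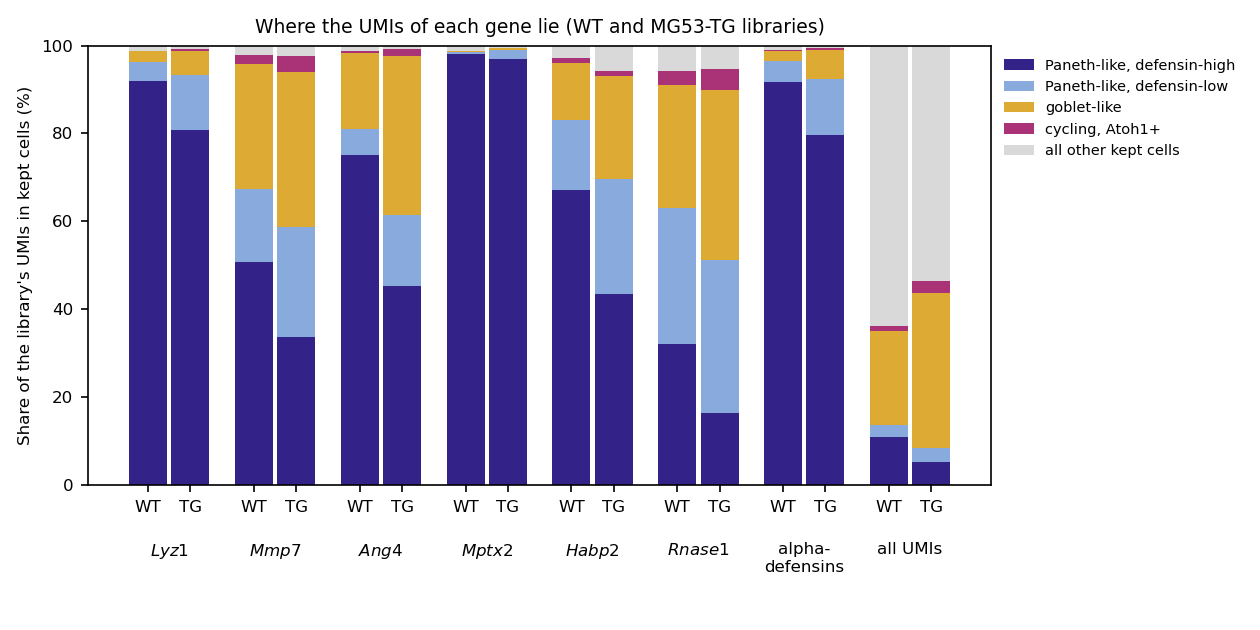
Share of the UMIs of each gene (percent, stacked bars from 0) that lay in each cell type of the WT and the MG53-TG library, beside the alpha-defensin sum and all UMIs. Mptx2 and Lyz1 resemble the alpha-defensins, with over 93% of UMIs in Paneth-like cells, whereas Rnase1, Mmp7 and, in MG53-TG, Ang4 have large goblet-like parts.

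The levels by cell type gave the same division. Lyz1 stood at 41694 CPM (WT) and 50961 CPM (MG53-TG) in defensin-high cells and at 8041 and 12922 CPM in defensin-low cells. In goblet-like cells it was 551 and 505 CPM, and in T cell-like cells 241 [220 to 264] and 97.6 [78.9 to 120] CPM. Levels of Lyz1 in the enterocyte-like cells (94.9 and 41.8 CPM) were below those of the T cell-like cells and are read as background. Mptx2 went from 6073 and 8592 CPM in defensin-high cells to 11.5 and 5.28 CPM in goblet-like cells. Thinned to 1354 UMIs each, 1.77% and 0.749% of goblet-like cells had a Mptx2 UMI, against 3.74% and 1.59% of T cell-like cells, so that its goblet-like level is read as background too. No cell was shallower than that depth. Unthinned, the shares were 12.4% and 7.12% of goblet-like cells at median depths of 14464 and 17953 UMIs, and 6.396% and 3.59% of T cell-like cells at 2854 and 3580 UMIs. The order thus turned with depth, so the reading of Mptx2 as background is not settled by detection alone.

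Mmp7, Ang4 and Rnase1 were detected in goblet-like cells well above that background. At equal depth, 37.1% [34.8 to 39.5] of WT and 27.5% [25.5 to 29.6] of MG53-TG goblet-like cells had a Mmp7 UMI, against 2.50% and 2.79% of T cell-like cells. Ang4 was found in 39.0% [36.6 to 41.4] and 45.2% [42.9 to 47.4] of thinned goblet-like cells, against 9.83% and 8.76% of T cell-like cells. Rnase1 was found in 11.9% [10.4 to 13.6] and 13.5% [11.97 to 15.1], against 0.936% and 0.398%. Before thinning these shares of goblet-like cells were 69.6% and 62.5% for Mmp7, 67.2% and 71.7% for Ang4 and 39.4% and 48.9% for Rnase1. Habp2 was sparse outside Paneth-like cells, at 8.83 and 9.36 CPM in goblet-like cells and at 1 and 2 UMIs in all T cell-like cells. Thinned, 0 of 641 WT T cell-like cells had a Habp2 UMI, which allows a share of cells with a UMI at that depth of up to 0.468% by the limit of 3 counts (exact upper bound 0.574%). Unthinned, 1 of these cells had a Habp2 UMI.

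**Figure D2:**
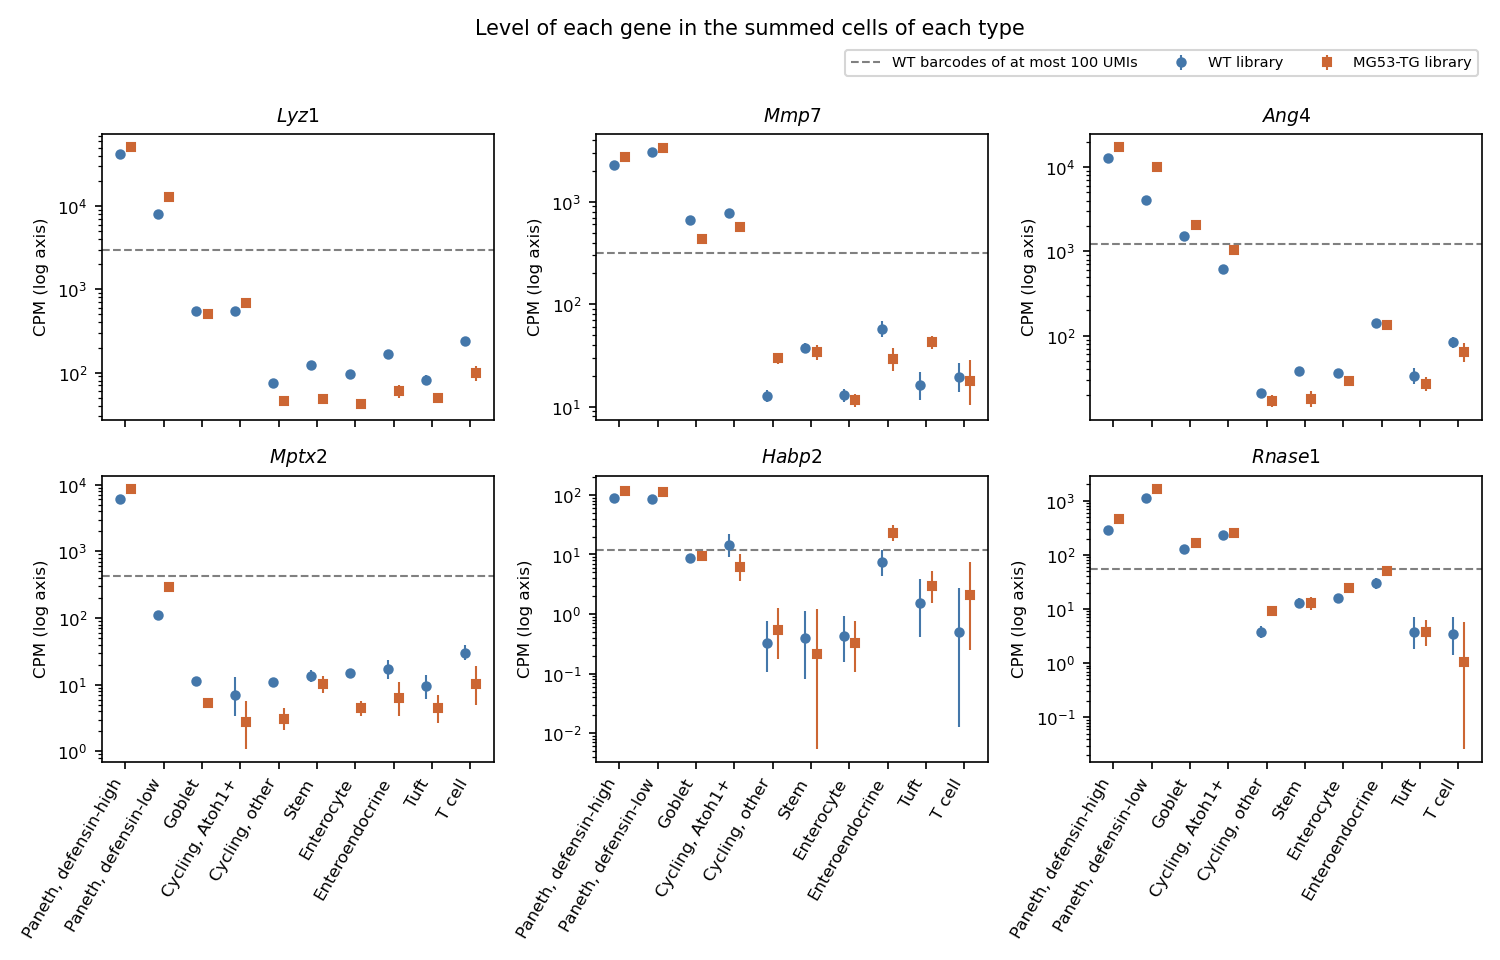
Level of each gene (CPM, log axis) in each cell type, WT and MG53-TG side by side, with exact 95% Poisson intervals for counting error. The dashed line is the level in WT barcodes of at most 100 UMIs, such as 2952 CPM for Lyz1 and 426 CPM for Mptx2; the Paneth-like clusters and, for Mmp7, Ang4 and Rnase1, goblet-like and cycling Atoh1+ cells lie above the other types.

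Free RNA was traced further with the alpha-defensins, the most abundant Paneth cell transcripts. Where a gene's UMIs come from 1 source, they keep the same number per 1000 alpha-defensin UMIs in every cell type. For Lyz1 this number was 63.9 in WT defensin-high cells, 59.1 in defensin-low cells, 62.7 in goblet-like cells, 62.4 in enterocyte-like cells, 57.9 [52.9 to 63.3] in T cell-like cells and 63.3 in WT barcodes of at most 100 UMIs, which hold mostly droplets without a cell. In MG53-TG it was 75.8, 73.3, 59.4, 73.6 and 73.0 [59.0 to 89.3] in the same 5 cell types. Lyz1 therefore kept nearly the same ratio to the alpha-defensins in Paneth-like and background cells, with the goblet-like cells of MG53-TG below the rest [58.5 to 60.3], and this ratio alone did not separate expression from free RNA. Thinned to equal depth, 29.3% [27.1 to 31.6] and 23.1% [21.17 to 25.04] of goblet-like cells had a Lyz1 UMI, above the 23.6% [20.3 to 27.0] and 11.6% [7.88 to 16.2] of T cell-like cells. The number per 1000 was higher in several other types. In WT and MG53-TG it was 88.8 [82.7 to 95.3] and 125 [119 to 131] in cycling Atoh1+ cells, 76.1 and 117 in cycling cells without Atoh1, 86.3 [80.9 to 91.9] and 96.5 [84.2 to 110] in stem-like cells, and 80.1 [72.2 to 88.6] and 83.2 [69.1 to 99.3] in enteroendocrine-like cells.

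The ratios of the other genes were far from constant. Ang4 had 19.5 (WT) and 25.5 (MG53-TG) UMIs per 1000 alpha-defensin UMIs in defensin-high cells, 20.1 and 47.4 in T cell-like cells and 174 and 242 in goblet-like cells. Over all non-epithelial cells Ang4 was at 21.5 and 123 [107 to 141] per 1000, so that in MG53-TG the background depended on the cells taken. Mmp7 had 3.53 and 4.10 in defensin-high cells, 4.66 and 13.2 in T cell-like cells, 76.0 and 50.9 in goblet-like cells and 127 and 104 in cycling Atoh1+ cells. Rnase1 had 0.432 and 0.690 in defensin-high cells, 14.6 and 19.2 in goblet-like cells and 38.0 and 46.7 in cycling Atoh1+ cells. Per alpha-defensin UMI these 3 genes were thus more frequent in goblet-like and cycling Atoh1+ cells than in defensin-high or T cell-like cells. Rnase1 also had 10.4 and 43.3 per 1000 in enterocyte-like cells, at 15.8 and 24.6 CPM. In enteroendocrine-like cells Rnase1 had 14.4 and 70.9 per 1000 and Ang4 67.8 and 187. Mmp7 had 12.9 and 75.4 in cycling cells without Atoh1 and 25.9 and 68.4 in stem-like cells. High numbers were therefore not confined to goblet-like and cycling Atoh1+ cells. Mptx2 went the other way. It had 9.31 and 12.8 per 1000 in defensin-high cells and 7.28 and 7.76 in T cell-like cells, but 0.816 and 1.67 in defensin-low cells and 1.31 and 0.620 in goblet-like cells. The alpha-defensin UMIs of the defensin-low and goblet-like cells were therefore accompanied by less Mptx2 than those of free RNA.

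**Figure D3:**
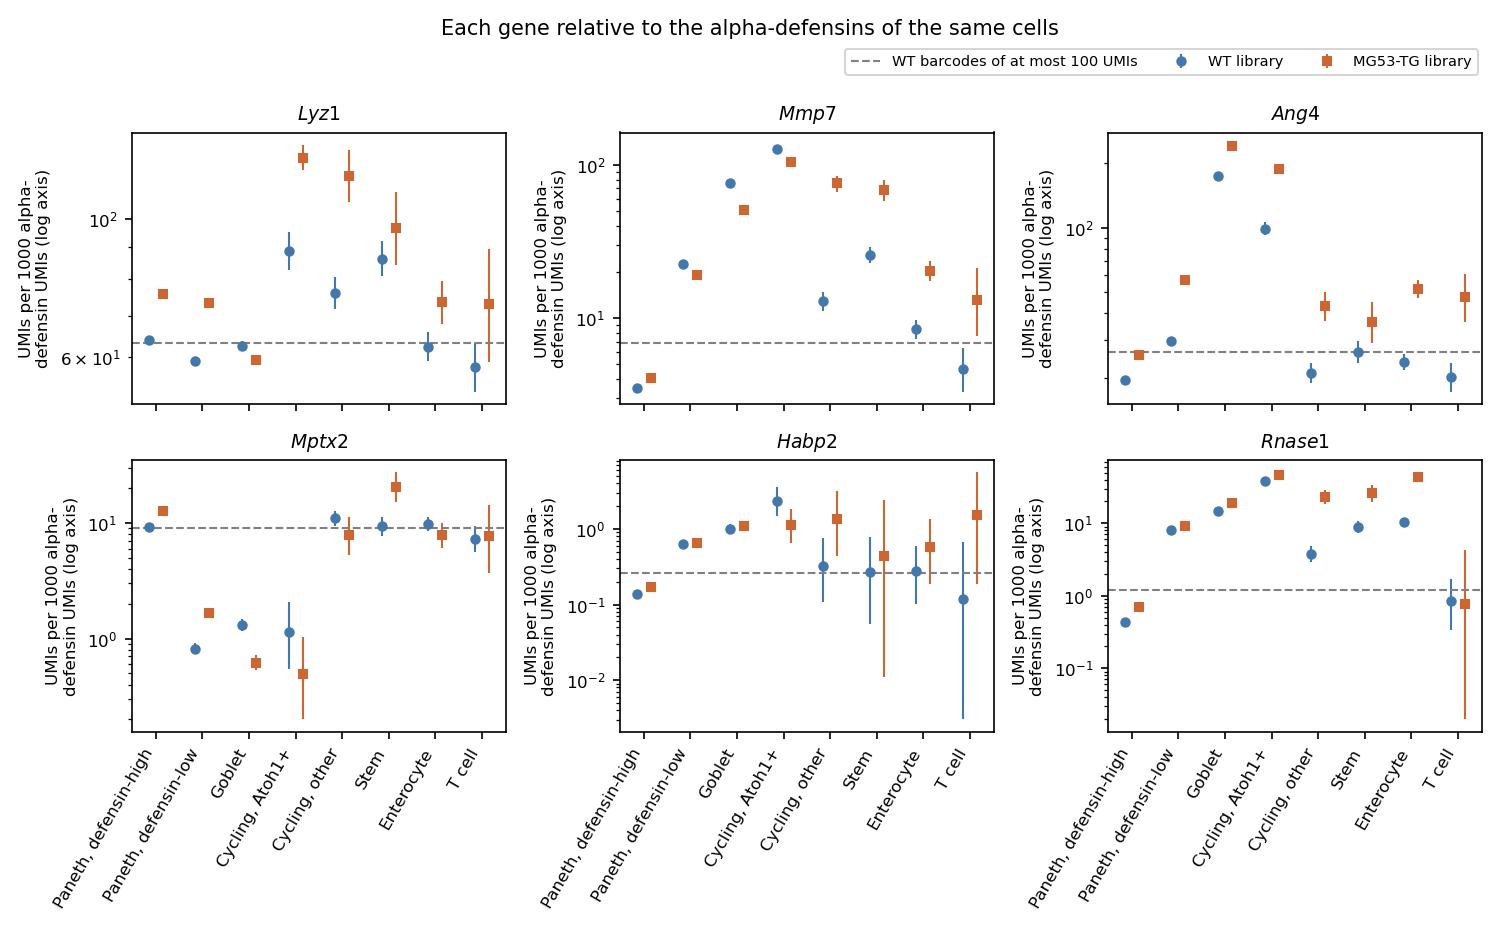
UMIs of each gene per 1000 alpha-defensin UMIs (log axis) by cell type and library, with exact 95% intervals for counting error. Lyz1 spans the narrowest range, from 57.9 to 125 with its highest values in cycling cells, and Ang4, Mmp7 and Rnase1 rise in goblet-like and cycling Atoh1+ cells. In MG53-TG, Mmp7 is also high in other cycling and stem-like cells and Rnase1 in enterocyte-like cells. Mptx2 drops in defensin-low and goblet-like cells.

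The genes also divided the Paneth-like cells. Because alpha-defensins took up most UMIs of the defensin-high cells, folds between the clusters were computed in CPM and with the UMIs outside the 6 genes and the alpha-defensins as the total (other UMIs). In CPM, 2.3% of 9264 genes were at least 2-fold higher in defensin-high than in defensin-low cells in WT and 0.828% of 7852 in MG53-TG. Lyz1, Ang4 and Mptx2 were among these in WT, and Lyz1 and Mptx2 in MG53-TG. Rnase1 was at least 2-fold lower in defensin-high cells in both libraries, as were 78.8% and 88% of all genes. Mptx2 showed the largest fold of the 6, at 54.7 (WT) and 29.1 (MG53-TG) in CPM and 163 and 93.5 by other UMIs. Lyz1 was 5.19 and 3.94 times higher in CPM and 15.4 and 12.7 times by other UMIs. Ang4 was 3.15 and 1.71 times higher in CPM and 9.36 and 5.48 times by other UMIs.

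Mmp7, Habp2 and Rnase1 did not follow. Mmp7 was lower in defensin-high cells in CPM, with folds of 0.751 and 0.820, but higher by other UMIs, with folds of 2.24 and 2.63, so its direction turned with the scale. Habp2 had nearly the same CPM in both clusters (folds of 1.03 and 1.02) and was 3.08 and 3.27 times higher by other UMIs. Rnase1 was the member with its higher level in defensin-low cells on both scales, with folds of 0.255 and 0.288 in CPM and 0.760 and 0.924 by other UMIs. Counted per cell, defensin-high cells held 14.1 and 23.2 Rnase1 UMIs on average, and defensin-low cells 16.9 and 30.2, although their median depth was lower. The median cell had 9 (WT) and 16 (MG53-TG) in defensin-high and 6 and 19 in defensin-low cells, so that in WT mean and median differed in order, and the 10 defensin-low cells with most held 29.6% and 25.3% of the UMIs. The clusters were made from these same cells, so that the folds are a description.

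**Figure D4:**
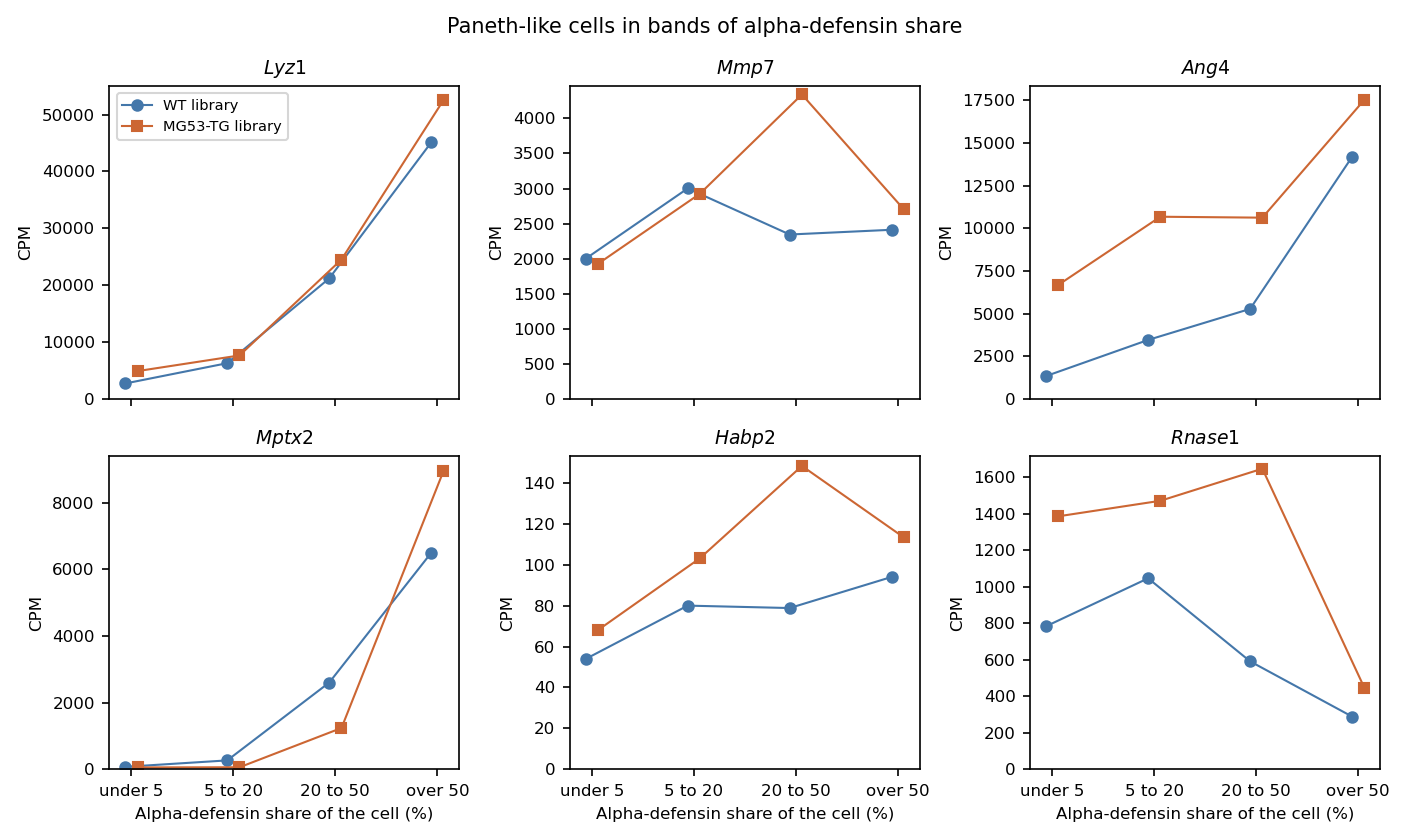
Level of each gene (CPM, linear axis) in Paneth-like cells sorted into 4 bands by the share of alpha-defensins in their UMIs outside the 6 genes, WT and MG53-TG, drawn without intervals. In CPM, Lyz1 and Mptx2 are highest in the top band in both libraries and Rnase1 is lowest there; by UMIs outside the 6 genes and the alpha-defensins, which are not plotted, Mmp7 and Habp2 climb too and Rnase1 is not lowest over 50%.

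Bands of alpha-defensin share (under 5%, 5 to 20%, 20 to 50% and over 50% of the UMIs outside the 6 genes) divided the Paneth-like cells further. They held 56, 112, 67 and 198 WT cells and 30, 84, 53 and 85 MG53-TG cells. The clusters entered them unequally: 0, 8, 36 and 196 of the WT cells and 1, 0, 12 and 83 of the MG53-TG cells were defensin-high, so that the band of 20 to 50% compares different mixtures of the clusters. Lyz1 climbed through the bands from 2694 to 6266, 21185 and 45102 CPM in WT and from 4871 to 7627, 24499 and 52533 CPM in MG53-TG. Mptx2 had 68.1, 261, 2601 and 6502 CPM in WT and 50.4, 54.3, 1235 and 8957 CPM in MG53-TG. Mptx2 was found in 31.2% (35 of 112) of WT and 14.3% (12 of 84) of MG53-TG cells of the 5 to 20% band, and in 96.0% and 96.5% of those over 50%. Rnase1 had 783, 1046, 591 and 288 CPM in WT and 1386, 1471, 1647 and 446 CPM in MG53-TG. That order of Rnase1 turned with the scale: by other UMIs, scaled to the same total, it stood at 807, 1195, 908 and 1304 in WT and at 1443, 1705, 2617 and 1993 in MG53-TG, so that it was lowest over 50% in CPM and not by other UMIs. Mmp7 stayed between 1999 and 3001 CPM in WT and between 1925 and 4342 CPM in MG53-TG, and Habp2 between 53.9 and 94.1 CPM in WT and between 68.0 and 148 CPM in MG53-TG. By other UMIs both climbed, Mmp7 from 2059 under 5% to 10921 over 50% in WT and from 2004 to 12078 in MG53-TG, and Habp2 from 55.5 to 426 and from 70.8 to 507.

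Between the libraries, all 6 genes were higher in MG53-TG than in WT within each Paneth-like cluster. In defensin-high cells 6 of 6 were higher, where 31.8% of the 8843 genes with at least 30 UMIs were higher and the median log2 ratio (MG53-TG over WT, in CPM) of all genes was -0.20. None of the 6 passed 2-fold there, beside 0.464% of all genes that were at least 2-fold higher and 8.09% that were at least 2-fold lower. The median log2 ratio of the 6 was 0.41. Of the UMIs of defensin-high cells, alpha-defensins made up 65.2% (WT) and 67.2% (MG53-TG), and the 6 genes 6.317% and 8.004%. In CPM a smaller rest was thus left to all other genes in MG53-TG. How far this sets the shares and the median of all genes was not tested. Rnase1 had the largest ratio of the 6, at 282 (WT) and 464 CPM (MG53-TG), a log2 ratio of 0.72 [0.64 to 0.80]. Mptx2 was at 6073 and 8592 CPM (log2 ratio 0.50 [0.48 to 0.52]) and Ang4 at 12732 and 17157 CPM (0.43 [0.42 to 0.44]). Habp2 was at 88.9 and 116 CPM, with a log2 ratio of 0.38 [0.23 to 0.53]. Lyz1 (41694 and 50961 CPM) and Mmp7 (2300 and 2755 CPM) differed by 0.29 and 0.26 on the log2 scale. Alpha-defensins summed differed by 0.04. Each of these ratios rests on 1 library per genotype, and single cells overlapped widely: the middle 80% of defensin-high cells ran from 2847 to 26139 CPM of Ang4 in WT and from 6799 to 31029 CPM in MG53-TG.

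In defensin-low cells 6 of 6 were again higher in MG53-TG, against 49.4% of 8406 genes, with a median log2 ratio of 0.61 beside -0.01 over all genes. Ang4 and Mptx2 passed 2-fold (2 of 6, against 0.964% of all genes at least 2-fold higher and 1.37% at least 2-fold lower). Ang4 stood at 4048 (WT) and 10049 CPM (MG53-TG), a log2 ratio of 1.31 [1.28 to 1.34]. The median cell had 1410 (WT) and 4958 CPM (MG53-TG). Mptx2 stood at 111 and 295 CPM, a log2 ratio of 1.41 [1.22 to 1.60], but this rested on few cells. A Mptx2 UMI was found in 60 of 193 cells (31.1%) of WT and in 31 of 156 (19.9%) of MG53-TG, and the 10 cells with most held 77.7% and 90.5% of the UMIs. Without those 10 cells of each library it was 26.3 and 30.2 CPM. Lyz1 had 8041 and 12922 CPM (log2 ratio 0.68), Rnase1 1104 and 1611 CPM (0.54), Habp2 86.0 and 114 CPM (0.40) and Mmp7 3063 and 3361 CPM (0.13). The alpha-defensin sum itself was higher in the defensin-low cells of MG53-TG, with a log2 ratio of 0.37, and so was the median share of alpha-defensins per cell, at 12.6% against 8.71%. Goblet markers summed to 144137 (WT) and 121532 CPM (MG53-TG) in this cluster, and their part in these ratios was not tested.

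With both clusters summed, 1 of 6 (Rnase1, 444 and 898 CPM, log2 ratio 1.01 [0.97 to 1.06]) passed 2-fold, beside 1.51% of 10109 genes at least 2-fold higher and 3.0% at least 2-fold lower, and 6 of 6 were higher, beside 73.3% of all genes. Scaling by the median of ratios moved all ratios of this sum by -0.22. With that scaling Lyz1 went from 0.06 to -0.16 and Mptx2 from 0.16 to -0.06, whereas Ang4, Habp2, Mmp7 and Rnase1 stayed above 0. The defensin-high cluster gave 240 of 433 Paneth-like cells in WT and 96 of 252 in MG53-TG, so the sum compares different mixtures of the clusters.

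Within the bands of defensin share, Ang4 and Rnase1 were higher in MG53-TG in 4 of 4 bands. For Ang4 the log2 ratio declined with defensin content, from 2.32 [2.22 to 2.43] under 5% to 1.63 [1.59 to 1.67], 1.01 [0.98 to 1.05] and 0.31 [0.29 to 0.32] over 50%. The median cell gave the same order of libraries in every band, with 172 and 1533 CPM, 1837 and 5889 CPM, 4595 and 10693 CPM, and 11940.1 and 15840.2 CPM in WT and MG53-TG. Under 5%, though, the 10 cells with most Ang4 held 85.3% (WT) and 95.3% (MG53-TG) of its UMIs, and without them the levels were 254 and 571 CPM. These 10 are a larger part of the 30 MG53-TG cells than of the 56 WT cells. Levels without the 10 cells are therefore not compared like for like. For Rnase1 the log2 ratios were 0.82, 0.49, 1.48 and 0.63, and the medians per cell were 149 and 392, 548 and 749, 227 and 1753, and 234 and 409 CPM. Lyz1 was higher in all 4 bands by 0.85, 0.28, 0.21 and 0.22, but its median cell was lower in MG53-TG under 5% (945 and 644 CPM) and from 20 to 50% (19064 and 17460 CPM). It was at 2037 and 2049 CPM from 5 to 20% and at 44735 and 46421 CPM over 50%. Under 5% the 10 cells with most Lyz1 held 75.7% of its WT UMIs and 95.6% of those in MG53-TG. Without the 10 cells with most, the levels were 804 and 315 CPM under 5% and 3749 and 3714 CPM from 5 to 20%. The same limit holds for these levels, since both bands held fewer MG53-TG cells. Habp2 was higher by 0.34 [-0.43 to 1.09], 0.37, 0.91 and 0.27, and its interval included 0 under 5%. Mmp7 was at -0.05 [-0.18 to 0.07] and -0.04 [-0.09 to 0.02] in the lower bands, at 0.89 from 20 to 50% and at 0.16 over 50%. Mptx2 was lower in MG53-TG at -0.43 [-1.27 to 0.35], -2.27 [-2.62 to -1.93] and -1.07 [-1.15 to -0.99] in the 3 lower bands and higher at 0.46 over 50%. These Mptx2 ratios rest on few cells, since the 10 cells with most held 92.8% (WT) and 97.6% (MG53-TG) of its UMIs from 5 to 20%, and 69.3% and 93.4% from 20 to 50%. With 36 of 67 WT and 12 of 53 MG53-TG cells from the defensin-high cluster, the ratios of the 20 to 50% band do not describe the defensin-low cluster alone.

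**Figure D5:**
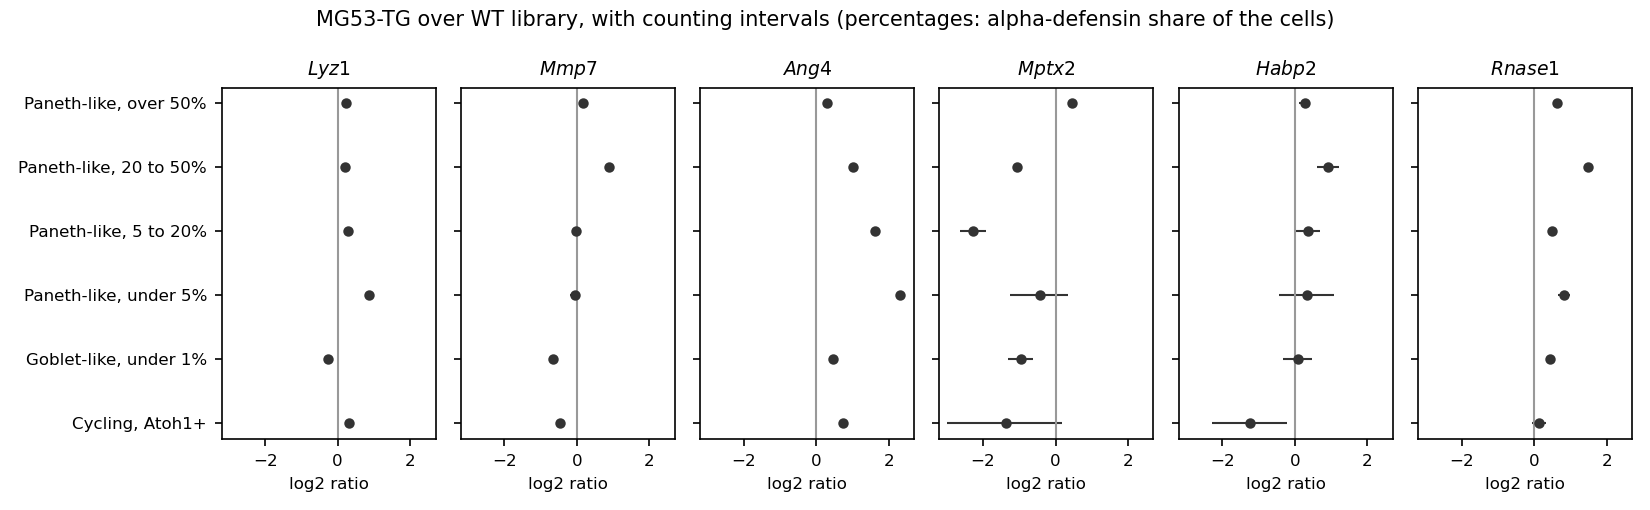
Log2 ratio of CPM (MG53-TG over WT) of each gene in the 4 bands of Paneth-like cells, in goblet-like cells with under 1% alpha-defensin UMIs and in cycling Atoh1+ cells, with exact 95% intervals for counting error. Ang4 is above 0 in every set and falls from 2.32 to 0.31 through the bands, Mmp7 is below 0 in goblet-like and cycling Atoh1+ cells, and Mptx2 is above 0 in the band over 50% and not in the others.

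In goblet-like cells Ang4 and Rnase1 were higher and Mmp7 lower in MG53-TG. Ang4 stood at 1533 (WT) and 2061 CPM (MG53-TG), with a log2 ratio of 0.43 [0.41 to 0.45], and Rnase1 at 128 and 164 CPM (0.35 [0.28 to 0.41]). Mmp7 stood at 668 and 433 CPM (-0.62 [-0.66 to -0.59]). Mptx2 was the gene of the 6 that passed 2-fold, being lower at -1.13 [-1.41 to -0.84], at a level read above as background, beside 1.33% of 11914 genes at least 2-fold lower and 0.495% at least 2-fold higher. Of the 6, 3 were higher, beside 56.0% of all genes. The other 3 (Lyz1, Mmp7 and Mptx2) were lower here and higher in both Paneth-like clusters, beside 5.79% of the 8097 genes with at least 30 UMIs in each of the 3, while 24.4% pointed one way in both Paneth-like clusters and the opposite way here. For Lyz1 the ratio to the alpha-defensins did not separate expression in goblet-like cells from free RNA. In single goblet-like clusters Lyz1 was at -1.20, -0.21, 0.52, 0.05 and 0.37. Goblet-like cells with under 1% of UMIs from alpha-defensins (1271 and 1474 cells), which leaves out those richest in defensins, gave the same pattern. There Ang4 was at 0.47 (1244 and 1723 CPM), Rnase1 at 0.43 (87.6 and 118 CPM) and Mmp7 at -0.66 (497 and 315 CPM) on the log2 scale, and 0 of 6 passed 2-fold, beside 1.71% of 11587 genes in either direction. These counts carry no test between libraries.

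The direction of Mmp7 held in 5 of 5 goblet-like clusters, with log2 ratios from -0.68 to -0.30, and that of Rnase1 in 5 of 5, from 0.23 [-0.16 to 0.63] to 1.68 [1.10 to 2.30]. Of all genes with at least 30 UMIs, between 51.4% and 67.9% were higher in MG53-TG in these clusters (67.0%, 53.7% and 59.1% in the others). Ang4 was higher in 4 of 5. The exception was the cluster led by interferon-induced genes such as Isg15, Ifit1 and Rsad2, with 65 WT and 140 MG53-TG cells, where Ang4 was at 3327 and 2692 CPM (-0.31 [-0.36 to -0.25]). That cluster had the highest Ang4 level of the 5 in each library, and 1.94% and 0.992% of its UMIs came from alpha-defensins. Mmp7 was highest in the cluster led by Ccl9 and the secretory machinery genes Fkbp11, Agr2 and Creb3l1, at 980 and 632 CPM, and so was Rnase1, at 223 and 330 CPM. In the shallowest goblet-like cluster, led by Ido1 and Zg16, Mmp7 was at 186 and 116 CPM and Rnase1 at 11.6 and 37.2 CPM.

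Cycling Atoh1+ cells carried the genes that goblet-like and Paneth-like cells share. Ang4 was at 613 (WT) and 1030 CPM (MG53-TG) there, with a log2 ratio of 0.75 [0.64 to 0.86], Rnase1 at 235 and 256 CPM (0.12 [-0.07 to 0.32]) and Mmp7 at 785 and 572 CPM (-0.46 [-0.57 to -0.34]). Cycling cells without Atoh1 (568 and 283) had 3.77 and 9.11 CPM of Rnase1. Lyz1 was at 549 and 687 CPM in cycling Atoh1+ cells, and Mptx2 had 10 and 7 UMIs. Habp2 was counted 21 times (WT) and 16 times (MG53-TG), at 14.7 and 6.23 CPM and a log2 ratio of -1.23 [-2.27 to -0.23], which made it the gene past 2-fold among the 5 with at least 30 UMIs, beside 0.553% of 8504 genes at least 2-fold lower and 1.55% at least 2-fold higher.

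Over all epithelial cells, of whose UMIs MG53-TG had the smaller Paneth-like share, the order of the genes was different. Lyz1 was at 5117 and 3368 CPM (-0.60), Mptx2 at 699 and 473 CPM (-0.56), Mmp7 at 512 and 437 CPM (-0.23), Habp2 at 14.96 and 14.2 CPM (-0.07 [-0.18 to 0.03]), Ang4 at 1914 and 2023 CPM (0.08) and Rnase1 at 99.4 and 151 CPM (0.60). None of the 6 passed 2-fold and 2 of 6 were higher, beside 1.43% of 14657 genes at least 2-fold higher, 1.06% at least 2-fold lower and 64.5% higher. Scaled by the median of ratios, Ang4 came to -0.0099, so its direction over all epithelial cells turned with the scale.

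Relatives and other products of Paneth cells from a list of 20 genes, of which 19 were in the tables, gave a setting for these ratios. In defensin-high cells 12 had at least 30 UMIs, 0 were at least 2-fold higher and 2 were at least 2-fold lower in MG53-TG, beside the 0.464% and 8.09% of all genes given above. These were Reg3b, an antibacterial lectin of the injured epithelium (2828 and 1159 CPM, log2 ratio -1.29), and Kcnn4, a potassium channel gene (47 and 1 UMIs). Kcnn4 met the minimum of 30 UMIs through the WT library alone, so nothing is read from its ratio. Itln1, which encodes the microbe-binding lectin intelectin (30776 and 40036 CPM), and Clps, which encodes colipase (4907 and 5667 CPM), were higher by 0.38 and 0.21. In defensin-low cells 11 had at least 30 UMIs, with 3 at least 2-fold higher and 1 at least 2-fold lower, beside 0.964% and 1.37% of all genes. Mptx1 (113 and 541 CPM, log2 ratio 2.25 [2.08 to 2.43]), Pnliprp2 (151 and 395 CPM, 1.39) and the zinc transporter gene Slc30a2 (11.2 and 28.0 CPM, 1.32) were higher, and Reg3b (2446 and 1192 CPM, -1.04) was lower. Mptx1 and Mptx2 had opposite homes: Mptx1 stood at 11.01 and 19.6 CPM in defensin-high cells and at 134 and 216 CPM in goblet-like cells.

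The paralogs Ang and Rnase4 of the ribonuclease genes were less restricted. Ang was at 90.1 and 115 CPM in defensin-high, 235 and 305 CPM in defensin-low and 137 and 147 CPM in goblet-like cells, and Rnase4 at 211 and 251, 577 and 619, and 287 and 279 CPM. Lyz2 was counted 64 times (WT) and 52 times (MG53-TG) over all epithelial cells, against 542748 and 302864 of Lyz1, and stood at 4077 CPM in a WT cluster of 17 cells that carried mast cell genes (Mcpt1, Mcpt2 and Cpa3) beside it. Ang5 had 5 and 1 UMIs, each in Paneth-like cells. Ang6, Apcs and Mmp10 had 0 UMIs in the Paneth-like and goblet-like cells of both libraries.

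Of 12 listed regulators of Paneth and secretory cells, 11 had at least 30 UMIs in defensin-high cells, of which 0 were at least 2-fold higher and 1 at least 2-fold lower in MG53-TG, a share near the 8.09% of all genes, so nothing is read from it. In either direction 7 were higher and 4 lower, with a median log2 ratio of 0.05, beside 31.8% of all genes higher and an all-gene median of -0.20. The smaller rest of UMIs left to other genes in the defensin-high cells of MG53-TG, given above, holds for these values too. The gene past 2-fold was Fzd5, a Wnt receptor gene (8.01 and 3.54 CPM, 96 and 17 UMIs, log2 ratio -1.18 [-2.02 to -0.43]). Sox9, a transcription factor needed for Paneth cells, stood at 81.5 and 113 CPM (0.47) but at 179 and 164 CPM in defensin-low cells. Atoh1 was at 29.9 and 28.1 CPM in defensin-high cells, Xbp1, a factor of the secretory stress response, at 68.6 and 65.7 CPM, and the autophagy gene Atg16l1 at 3.75 and 3.33 CPM (45 and 16 UMIs). Spdef, a factor of goblet and Paneth maturation, was at 32.0 and 42.6 CPM (0.41). Bhlha15 (Mist1), a factor of secretory cell architecture, was at 27.7 and 35.4 CPM (0.35) in defensin-high cells, at 43.7 and 65.9 CPM (0.59 [0.26 to 0.93]) in defensin-low cells and at 18.6 and 25.5 CPM (0.45) in goblet-like cells. None of the 11 with at least 30 UMIs passed 2-fold in defensin-low cells.

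The genes most like each of the 6 were found by Pearson's r of log2(CPM + 1) over 16 sums of cell type and library, among 12137 genes. These sums share their libraries, so r is a description. Lyz1 ran with Defa17 (r = 0.997), Defa24 (0.9901) and Defb1 (0.968), and Mptx2 with the defensin genes Gm15292 (0.995), Defa30 (0.994) and Defa36 (0.994). Ang4 ran with Itln1 (0.982), Clps (0.976) and Nupr1 (0.971), and Habp2 with Samd5 (0.923), Fzd9 (0.912) and Pnliprp2 (0.911). Mmp7 ran with Mymx (0.967), 1810028F09Rik (0.952) and Pdia2 (0.951). Rnase1 ran with Lgmn (0.958), 1810028F09Rik (0.9495) and Bhlha15 (0.946), none of them a defensin. Among the 6 themselves the highest r was that of Mmp7 and Ang4 (0.948) and the lowest that of Mptx2 and Rnase1 (0.621).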

How the data were processed

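Single-cell libraries (10x 3′ kit V3) of WT and MG53-TG mice, 1 each, were deposited as UMI counts per gene and barcode. Per the file headers, the authors counted reads with Cell Ranger 4 (WT) and 6.0.1 (MG53-TG), and the submitters' processing notes name mm10 and Seurat. The WT table held 2005718 barcodes (1487899 with a UMI, 158455748 UMIs) and that of MG53-TG 12361 barcodes (128227881 UMIs, at least 500 each), so that droplets without cells could be measured in WT alone. Treatment of strand and of reads shared by paralogs is not given in the sources used here.

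Barcodes were kept from 1354 UMIs and 200 genes upward and up to 25% mitochondrial UMIs. Scrublet (scanpy 1.11.5) marked 0.0135% and 0.0388% as doublets by its own threshold, too few to be useful, so the top-scoring 438 WT (5.92%) and 212 MG53-TG (4.11%) barcodes were removed, at 0.8% per 1000 cells. Cells were clustered into 27 clusters (2000 variable genes, 30 principal components, 15 neighbours, Leiden resolution 1, igraph 0.11.9) without the 6 genes and Trim72, and named from marker lists that leave the 6 out. The kept cells held 108864593 UMIs in WT and 91252276 in MG53-TG, including 85.1% to 88.6% (WT) and 92.4% to 97.1% (MG53-TG) of the UMIs of each of the 6 genes.

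UMIs were summed over cells of a type and library. Levels (CPM) are UMIs scaled to a total of 1e6 in those cells. Ratios were read over genes with at least 30 UMIs in both libraries together, and 2-fold means a log2 ratio of at least 1 in size. Intervals at 95% are exact (Poisson for levels, Clopper-Pearson for shares, conditional binomial for ratios) and cover counting error only. The ratio and 2-fold call step was tested on simulated sums of Paneth-like cells, without spread between cells or mice. The other steps were not tested in this way. Python 3.11.15, numpy 2.4.6, scipy 1.17.1 and pandas 2.3.3 were used. The 6 genes were named by symbol, and for each the 3 genes most like it. The genes, the marker lists and the lists of relatives and regulators were chosen with earlier results of these data known. Alternatives covered scaling, cell filters, doublets, clustering and the definition of Paneth-like cells. Groupings by defensin share and by single cluster were added after seeing the data.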

Additional observations from a re-analysis of the deposited data

Results flagged for a closer look

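In 3 of the 6 genes the log2 ratio (MG53-TG over WT, in CPM) pointed in opposite directions in Paneth-like and goblet-like cells, and these differences were not tested, since each genotype had 1 library. Of 8097 genes 24.4% had such opposite directions, and 5.79% in the order seen here, higher in both Paneth-like clusters and lower in goblet-like cells. Lyz1 was at 0.29 in defensin-high and 0.68 in defensin-low cells, against -0.13 in goblet-like cells, where it was -1.20, -0.21, 0.52, 0.05 and 0.37 in the 5 clusters. Its goblet-like level, 62.7 (WT) and 59.4 (MG53-TG) per 1000 alpha-defensin UMIs beside 57.9 and 73.0 in T cell-like cells, did not by itself tell expression from free RNA. The Mptx2 of goblet-like cells was 0.173 (WT) and 0.0688 (MG53-TG) times what free RNA with their alpha-defensin UMIs would bring, and at equal depth a Lyz1 UMI was found in 29.3% and 23.1% of goblet-like cells, against 23.6% and 11.6% of T cell-like cells. Mmp7 was at 0.26 in defensin-high and 0.13 in defensin-low cells, against -0.62 in goblet-like cells. Mptx2 was at 0.50 in defensin-high and 1.41 in defensin-low cells, against -1.13 in goblet-like cells, where its level is read as background.

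All 6 genes were found in the 1434842 WT barcodes of at most 100 UMIs, which enter no comparison between the libraries and hold mostly droplets without a cell. Lyz1 stood there at 2952 CPM, Ang4 at 1229 CPM, Mptx2 at 426 CPM, Mmp7 at 319 CPM, Rnase1 at 55.6 CPM and Habp2 at 12.05 CPM. Alpha-defensins gave 4.67% of the 6059698 UMIs of these barcodes. The MG53-TG table as used here starts at 500 UMIs, so no such values can be set beside them.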

How the results depend on the processing

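The median log2 ratio of the 6 genes in Paneth-like cells (0.33) was above 0 under 10 of 10 alternatives that keep both clusters. It was 0.11 with scaling by the median of ratios, 0.13 per UMIs outside the 6 genes and the defensins, 0.21 with cells gated at 5% defensins and 0.44 with a mitochondrial limit of 50%. It was 0.41 in defensin-high and 0.61 in defensin-low cells, 0.58 at shares under 5% and 0.90 from 20 to 50%. Lyz1 (0.06) turned to -0.16, -0.14, -0.093 (mean of single-cell CPM), -0.086 (5% gate) and -0.030 (doublets kept). Mptx2 (0.16) turned to -0.064 and -0.046 by the scalings, and to -0.43, -2.27 and -1.07 in the lower bands, where Mmp7 had -0.054 and -0.037. Of all genes 456 passed 2-fold in either direction, and 1473 with no minimum but 1 UMI in each library.

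In goblet-like cells the median (-0.02) was -0.34 (-0.31 without Mptx2, which had under 30 UMIs), -0.23, 0.32 and 0.46 in single clusters, -0.36 when defensins were left out of the clustering, 0.22 with the 50% mitochondrial limit and 0.14 with a minimum of 500 UMIs. Ang4 was -0.31 in the interferon cluster, and Lyz1 (-0.13) was 0.52, 0.050 and 0.37 in single clusters, 0.17 at the 50% limit and 0.086 at 500 UMIs. Mmp7 was lower in 10 of 10 alternatives, from -0.70 to -0.48. Over all epithelial cells the median (-0.15) was -0.24 by the median of ratios, 0.072 by mean single-cell CPM and -0.29 at the 50% limit, and Ang4 (0.08) was -0.0099 and -0.080 by the first and the last. Ang4 was above 0 in 7 of 9 alternatives there, at most 0.60. Habp2 (-0.07) was above 0 in 1 of 9, at 0.22. The median Paneth-like share of the 6 genes' UMIs (82.0% and 65.5%) was 75.6% and 59.3% without defensins in the clustering, 73.5% and 50.8% at the 50% limit and 75.5% and 54.8% at resolution 0.5. The cause of these shifts was not tested.

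Paneth-like cells numbered from 273 to 1075 in WT and from 137 to 611 in MG53-TG over the settings. The most came with the minimum of 500 UMIs, which added a shallow cluster led by AY036118 and Gm42418. The 5% gate gives no value for all epithelial cells. Leaving out replicates was not done, with 1 library per group. No paired analysis was possible because each group has 1 library and no result comes from a test.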

Other observations

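Habp2 also had UMIs in enteroendocrine-like cells, the hormone-producing cells of the epithelium. There were 17 UMIs in 286 WT cells (7.49 CPM) and 47 in 180 MG53-TG cells (23.1 CPM), found in 9 and 15 cells. Per 1000 alpha-defensin UMIs this was 3.59 [2.09 to 5.75] and 32.0 [23.5 to 42.6], against 0.119 and 1.55 in T cell-like cells (1 and 2 UMIs) and 0.136 and 0.172 in defensin-high cells. Thinned to 1354 UMIs a cell, 3 and 4 cells had a Habp2 UMI.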
